A study of Mus musculus with 15 samples.

Results

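A group of 10 transcription factors that set and hold the identity of B cells was examined in A20 cells with and without a disrupted *Foxp1* gene. The group comprised *Pax5, Ebf1, Tcf3, Spi1, Spib, Pou2f2, Pou2af1, Ikzf1, Ikzf3* and *Bach2*. It was drawn up as a list of known B-lineage regulators and not by a rule on their values, though earlier results of these data were known. All 10 genes were found among the 41388 genes of the count tables and passed the filter on low counts, which kept 13904 genes. A20 cells are a lymphoma line of B-cell origin, established from the BALB/c strain of mouse. RNA was sequenced from the wild-type parental line, from clones E6.1 and E6.2, which carry a mutation in *Foxp1* exon 6, and from clones E7.1 and E7.2, which carry a mutation in exon 7. All 5 lines were kept in standard culture without a further treatment. Each clone grew from a single cell after CRISPR/Cas9 editing with a guide expressed from a plasmid, so that a difference between a clone and the parental line can belong to the clone as well as to the edit. Each line gave 3 libraries taken from separate passages, 15 in all, and p values therefore measure the spread between passages of a line, not between independently edited clones.

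B cells are specified in steps by a small network of DNA-binding proteins. *Tcf3* encodes the E2A proteins, which with *Ebf1* open the B-cell programme, and *Pax5* then commits the cell to it by raising B-cell genes such as *Cd79a* and repressing genes of other lineages. *Spi1* (PU.1) and *Spib* are related ETS factors, *Ikzf1* (Ikaros) and *Ikzf3* (Aiolos) are zinc finger factors of lymphoid cells, *Pou2f2* (Oct2) binds the octamer element of immunoglobulin promoters and *Pou2af1* (OBF1) is its B-cell coactivator. *Bach2* is a repressor of the plasma cell regulator *Prdm1* (Blimp1), and its loss is known to ease the passage from activated B cell to plasma cell. FOXP1 is itself a forkhead transcription factor that is needed at early steps of B-cell development.

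The genes lie on 6 chromosomes of GRCm38. *Pax5* (ENSMUSG00000014030) spans chromosome 4 from 44531145 to 44710487 on the reverse strand, and *Bach2* (ENSMUSG00000040270) the same chromosome from 32238804 to 32586108 on the forward strand. *Ebf1* (ENSMUSG00000057098, chromosome 11, 44617317 to 45008091), *Ikzf1* (ENSMUSG00000018654, chromosome 11, 11685003 to 11772926) and *Ikzf3* (ENSMUSG00000018168, chromosome 11, 98464902 to 98546031) share chromosome 11. *Spib* (ENSMUSG00000008193, 44525995 to 44532071) and *Pou2f2* (ENSMUSG00000008496, 25087344 to 25159922) are both on the reverse strand of chromosome 7. *Tcf3* (ENSMUSG00000020167) lies on chromosome 10 from 80409514 to 80433647, *Spi1* (ENSMUSG00000002111) on chromosome 2 from 91082390 to 91115756 and *Pou2af1* (ENSMUSG00000032053) on chromosome 9 from 51213690 to 51240079. Exons of 3 of the genes overlap those of a neighbour. *Pax5* shares 125 of its 2465 exon bases with the antisense gene *Gm12462*, and *Bach2* shares 537 of 9940 with the antisense gene *Bach2os*. *Pou2f2* shares 35 of 8231 with *Mir6537*. Pairs that overlapped several genes were left out of the counts, and strand was not used, so those stretches could not contribute. *Bach2os* held 7 to 83 counts per library against 995 to 4915 for *Bach2*, and *Gm12462* held 0 to 109 against 335 to 1664 for *Pax5*.

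Promoter sequence from RefSeq (GRCm38.p6) was found for 8 of the 10 genes in 10 windows of 250 bases before a start site. The sequences of *Pou2f2, Bach2, Spib* and *Tcf3* are shown because these genes differed between the clones of the 2 exons, as given further on. Each is written 5′ to 3′ on the strand of the gene, without the bases that the annotation places in an exon of the gene, and the capitals mark an ETS core (CCGGAAG, read as CTTCCGG on the other strand) or an octamer core (TGCAAAT). The windows of *Pou2f2*, *Bach2* and *Tcf3* end at a start site inside the annotated gene. Next to the start site, 52 bases of the *Pou2f2* window and 12 bases of the *Tcf3* window lie in exons of the gene. Distances to a start site are counted in the full windows.
Pou2f2 (chr7:25132513-25132710, reverse strand): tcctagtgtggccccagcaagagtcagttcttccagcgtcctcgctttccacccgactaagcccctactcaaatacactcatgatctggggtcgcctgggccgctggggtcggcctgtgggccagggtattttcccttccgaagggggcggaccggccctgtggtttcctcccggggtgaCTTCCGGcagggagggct
Bach2 (chr4:32417185-32417434, forward strand): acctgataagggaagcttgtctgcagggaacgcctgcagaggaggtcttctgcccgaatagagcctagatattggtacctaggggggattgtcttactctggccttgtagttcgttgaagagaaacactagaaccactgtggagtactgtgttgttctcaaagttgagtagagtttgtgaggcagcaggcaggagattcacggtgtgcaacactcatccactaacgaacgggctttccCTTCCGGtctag
Spib (chr7:44532072-44532321, reverse strand): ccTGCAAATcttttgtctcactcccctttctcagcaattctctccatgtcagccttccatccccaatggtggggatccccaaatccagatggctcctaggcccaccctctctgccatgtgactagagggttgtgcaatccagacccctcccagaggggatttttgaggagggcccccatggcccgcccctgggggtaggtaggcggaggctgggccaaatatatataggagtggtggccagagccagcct
Tcf3 (chr10:80433648-80433885, reverse strand): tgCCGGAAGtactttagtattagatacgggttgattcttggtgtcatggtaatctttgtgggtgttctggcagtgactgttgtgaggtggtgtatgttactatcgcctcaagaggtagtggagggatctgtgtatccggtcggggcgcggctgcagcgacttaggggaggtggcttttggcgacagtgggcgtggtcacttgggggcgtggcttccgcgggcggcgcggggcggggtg

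The ETS core was present in the windows of *Bach2, Pou2f2* and *Tcf3*, at 12, 70 and 248 bases before the start site, and in 6.91% of all 32851 promoter windows. The octamer core was present in the windows of *Spib* and *Pou2af1*, at 248 and 231 bases before the start site, and in 3.56% of all windows. These 2 motifs were chosen after the sequences had been read. The forkhead motif TGTTTAC and the full octamer ATGCAAAT, which contains the octamer core, were in 0 of the 10 windows, against 3.17% and 1.60% of all windows. Both strands were searched, and a match of letters does not show that a factor binds there.

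The 15 libraries held 26328054 to 39181530 counted read pairs, and the members were covered by 335 to 113278 pairs in each library. Levels are CPM, that is, the share of a library's counted read pairs scaled to a fixed library size and normalized by TMM, with the SD over 3 libraries. *Foxp1*, the targeted gene, measured 102, 166 and 147 CPM in the parental libraries. It was at 103, 99.5 and 109 CPM in E6.1 and at 109, 104 and 105 CPM in E6.2. The E6 libraries lay around parental replicate 1 and under the other parental libraries. *Foxp1* had log2 fold changes of -0.41 in E6.1 and -0.39 in E6.2 against the parental line (adjusted p = 0.765 and 0.417, edgeR quasi-likelihood test) and was called in neither. It was lower in both E7 clones, at 41.7, 64.2 and 64.3 CPM in E7.1 and at 37.1, 39.6 and 52.3 CPM in E7.2, and was called against the parental line in both (log2 fold change -1.29, adjusted p = 0.00688, and -1.69, adjusted p = 0.00116, edgeR quasi-likelihood test with Benjamini-Hochberg adjustment). An RNA level does not show whether protein is made. B-cell markers (*Cd79a, Cd79b, Ms4a1, Cd22, Cd74* and *Blnk*) were detected in every library, with a summed level of 3080 to 4685 CPM. The summed level of 10 T-cell markers was 0.991 to 3.11 CPM, with *Cd3e* and *Bcl11b* at 0 in all libraries. That of 8 myeloid markers was 0.571 to 8.74 CPM, with *Cebpa* and *S100a8* at 0 in all. The plasma cell markers summed to 1553 to 2109 CPM in parental cells and to 1009 to 1527 CPM in E6.2, and most of this was *Jchain*.

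Some libraries stood apart from others of their line, and several members were among the genes that did. Against the mean of the other libraries of its line, parental replicate 1 was 1.48 log2 units higher in *Pou2f2* and 1.57 lower in *Bach2* (a deviation of -1.57). In parental replicate 1, 1165 of the 13904 genes deviated by more than 1 log2 unit, compared with 445 and 659 in the other parental libraries. E6.2 replicate 3 deviated by -1.60 in *Pax5*, -1.22 in *Bach2*, -0.99 in *Ikzf1* and -0.73 in *Ebf1*, and 3275 genes deviated by more than 1. E7.2 replicate 3 deviated by -1.32 in *Pax5* and -1.0 in *Ikzf1*, with 2328 genes past 1, and E6.2 replicate 1 by 1.17 in *Pax5* and -0.75 in *Tcf3*, with 2317. *Spi1, Spib, Pou2af1* and *Ikzf3* deviated by less than 0.55 in every library. All libraries are included in what follows, and values without those that deviated are given where they decide a call.

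**Figure D1:**
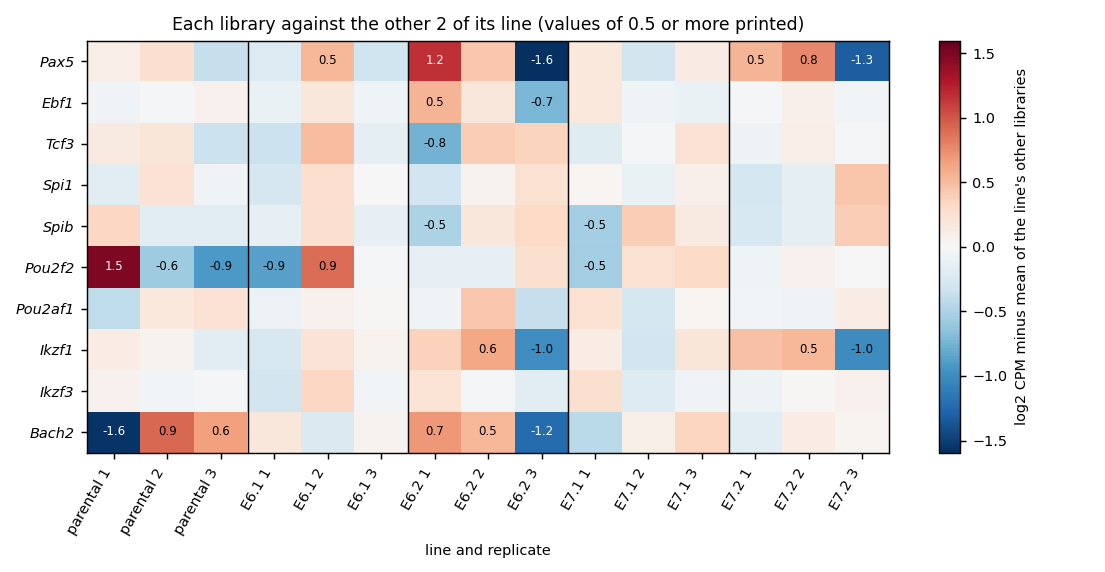
Deviation of each library from the mean of the other libraries of its line for the 10 factors (rows), as a difference in log2 CPM shown by colour, with values of 0.5 or more printed. The deviations furthest from 0 are those of *Pax5* and *Bach2* in E6.2 replicate 3, of *Pou2f2* and *Bach2* in parental replicate 1, and of *Pax5* in E7.2 replicate 3 and E6.2 replicate 1.

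In parental cells the members spanned a wide range of RNA levels. In bulk libraries such as these, fewer cells with a transcript and less of it in each cell cannot be told apart. Per length, as CPM divided by the exon length in kilobases (RPKM), *Pou2af1* was the highest at 1099.6 ± 170.3 RPKM (SD, n = 3), above 99.7% of the genes tested. *Ikzf1* followed at 84.2 ± 5.88 RPKM, then *Spib* at 54.8 ± 7.60, *Ikzf3* at 45.7 ± 1.17 and *Tcf3* at 26.7 ± 3.52 RPKM. In each of these steps the lowest parental library of the higher gene lay above the highest library of the next. *Pax5* at 11.7 ± 1.70 RPKM, *Bach2* at 9.68 ± 4.83, *Spi1* at 9.31 ± 0.92 and *Pou2f2* at 5.47 ± 3.55 RPKM formed a stretch in which neighbours overlapped. *Ebf1* was the lowest at 2.39 ± 0.0734 RPKM, above 33.6% of the genes tested. *Pou2af1, Ikzf1, Tcf3* and *Ebf1* kept ranks 1, 2, 5 and 10 among the members in all 5 lines, while *Bach2* ranked 7 in the parental line, 6 or 8 in the E6 clones and 9 in both E7 clones.

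*Pou2f2* had the widest range of line means, a 3.48-fold span, and its parental libraries did not form a group. *Pou2f2* was at 78.7, 30.5 and 25.9 CPM in parental cells. It was at 18.0, 40.6 and 26.5 CPM in E6.1 and at 19.2, 19.3 and 23.0 CPM in E6.2. In E7.1 it reached 54.4, 78.7 and 80.6 CPM, and in E7.2 51.3, 54.7 and 53.1 CPM. All 6 E7 libraries were above all 6 E6 libraries, and the parental libraries fell on both sides, with replicate 1 among the E7 values and the other two among the E6 values.

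*Bach2* had nearly as wide a range, a 3.38-fold span, in the opposite order. *Bach2* measured 41.5, 131 and 116 CPM in the parental libraries. E6.1 held 121, 99.4 and 114 CPM and E6.2 held 111, 103 and 45.9 CPM. E7.1 was the lowest line with 26.6, 33.9 and 38.0 CPM, and E7.2 had 47.4, 54.2 and 52.4 CPM. E7.1 lay under every other line, and parental replicate 1 and E6.2 replicate 3 lay within the range of the E7 libraries.

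**Figure D2:**
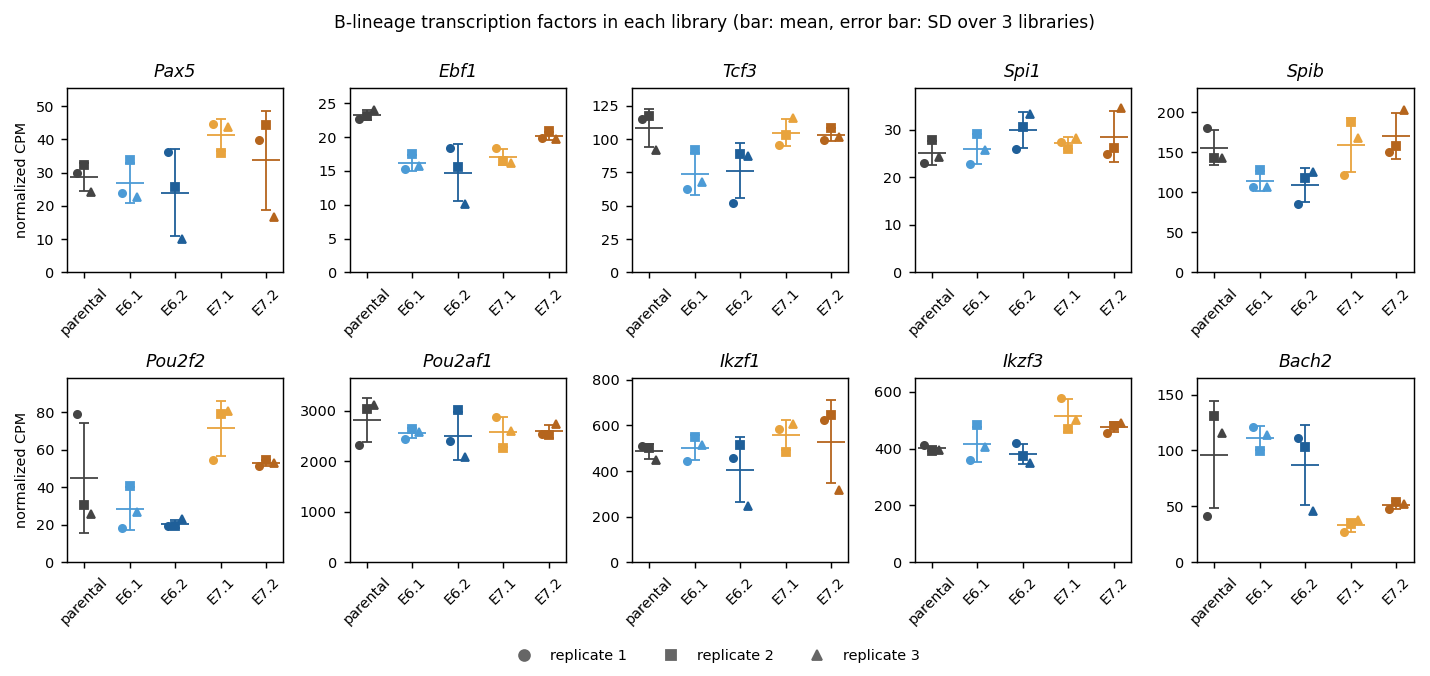
Normalized CPM of the 10 factors in the 15 libraries, one panel per gene with its own vertical axis from 0; points are libraries, with symbols for replicates 1 to 3, and bars are the line mean with the SD over 3 libraries. *Pou2f2* is higher and *Bach2* mostly lower in the E7 clones, whereas *Spi1* and *Pou2af1* differ little between lines.

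The E2A gene *Tcf3* and the ETS factor gene *Spib* had their lowest line means in the E6 clones. *Tcf3* was at 114.9, 117 and 91.6 CPM in parental cells, at 62.3, 91.8 and 67.8 CPM in E6.1, and at 52.4, 88.9 and 87.6 CPM in E6.2. The E7 clones had 95.7, 103 and 116 CPM (E7.1) and 99.3, 109 and 102 CPM (E7.2) of *Tcf3*, with every E7 library above every E6 library. *Spib* was at 181, 143 and 143 CPM in parental cells, at 107, 128 and 107 CPM in E6.1 and at 85.4, 118 and 125 CPM in E6.2. *Spib* reached 122, 187 and 167 CPM in E7.1 and 151, 158 and 203 CPM in E7.2, so that E7.1 replicate 1 alone fell among the E6 values.

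*Ebf1*, which acts with E2A ahead of *Pax5*, had its highest values in the parental line. *Ebf1* was at 22.7, 23.1 and 24.1 CPM there, and at 15.4, 17.6 and 15.7 CPM in E6.1. E6.2 had 18.4, 15.6 and 10.2 CPM, E7.1 had 18.4, 16.5 and 16.2 CPM, and E7.2 had 19.8, 20.9 and 19.7 CPM. All 12 libraries of the clones lay under all parental libraries, the closest being E7.2.

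*Pax5* and *Ikzf1* were lowest in the same libraries, though the order of libraries differed between the genes within some lines. *Pax5* was at 30.0, 32.3 and 24.2 CPM in parental cells, at 23.8, 33.8 and 22.8 CPM in E6.1 and at 36.3, 25.7 and 10.1 CPM in E6.2. *Pax5* was at 44.5, 35.9 and 43.7 CPM in E7.1 and at 40.0, 44.4 and 16.8 CPM in E7.2. The last values of E6.2 and E7.2 are the lowest of all 15. *Ikzf1* was at 512, 499.7 and 448 CPM in parental cells, at 444, 551 and 512 CPM in E6.1 and at 458, 516 and 245 CPM in E6.2. *Ikzf1* was at 586, 482 and 607 CPM in E7.1 and at 626, 644 and 317 CPM in E7.2, again with replicate 3 of both E6.2 and E7.2 lowest.

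The remaining members varied less. *Ikzf3* was at 412, 393 and 396 CPM in parental cells. The E6 clones held 360.1, 481 and 405 CPM (E6.1) and 419, 374 and 348 CPM (E6.2), and the E7 clones 579, 467 and 502 CPM (E7.1) and 456, 479 and 489 CPM (E7.2). The E7 libraries of *Ikzf3* all lay above the parental ones, and E6.1 replicate 2 lay among them. *Spi1* ranged from 22.8 to 34.7 CPM over the 15 libraries with a median of 26.3 CPM, and its line means differed by at most 1.19-fold. *Pou2af1* ranged from 2080.3 to 3120.1 CPM with a median of 2570.0 CPM, and its line means differed by at most 1.13-fold.

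Against the parental line, no member was called in any clone. The quasi-likelihood test at an adjusted p under 0.05 called 0 of the 10 members in E6.1, where 0.324% of all genes tested were called, and 0 of 10 in E6.2, where 1.17% were. It called 0 of 10 in E7.1, against 1.22% of all genes, and 0 of 10 in E7.2, against 0.295%. With the 4 clones averaged it again called 0 of 10, against 0.503% of all genes. At an unadjusted p under 0.05 the number of members was 3 in E6.1 (6.71% of all genes), 4 in E6.2 (13.1%), 3 in E7.1 (20%), 1 in E7.2 (13.3%) and 2 for the average of the clones (9.9%). DESeq2's Wald test called 1 member in E6.2 (*Ebf1*, with 2.87% of all genes called) and 1 in E7.1 (*Bach2*, with 8.71%), and edgeR's likelihood ratio test called 1 in E7.1 (*Bach2*, with 5.38%). Those with an unadjusted p under 0.05 were lower in all cases except *Ikzf3* in E7.1. They were *Ebf1, Tcf3* and *Spib* in E6.1, the same genes and *Pou2f2* in E6.2, *Ebf1, Ikzf3* and *Bach2* in E7.1, *Bach2* in E7.2, and *Ebf1* and *Bach2* for the average.

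*Bach2* came closest to the threshold. Its log2 fold change against parental cells was -1.55 in E7.1 (standard error 0.36, adjusted p = 0.0542 from edgeR) and -0.91 in E7.2 (standard error 0.36, adjusted p = 0.313), compared with 0.21 in E6.1 and -0.15 in E6.2 (adjusted p = 0.987 and 0.871). *Bach2* was called in E7.1 in 10 of 24 alternative fits, 4 of them among the 15 that left out 1 library. Without parental replicate 1 the log2 fold change of *Bach2* in E7.1 was -1.89 (adjusted p = 0.00543), and that of *Pou2f2* was 1.36 (adjusted p = 0.0170) in place of 0.66 (adjusted p = 0.317). The share of all genes called in E7.1 was then 6.81%, compared with 1.22% with all libraries. Parental replicate 1 is the library that deviated in *Bach2* and *Pou2f2*, so the calls of these genes without it are no independent support. Without parental replicate 1 and the third replicates of E6.2 and E7.2, a choice made after the data had been seen, *Bach2* was also called lower in E7.2 (-1.25, adjusted p = 0.00196). In that fit *Ebf1* was called lower in E7.1 (-0.45, adjusted p = 0.0183) and for the average of the clones (-0.41, adjusted p = 0.0488).

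*Ebf1* was the member whose difference from the parental line had the same sign in each clone with all libraries on one side. The E6 clones gave log2 fold changes of -0.52 (E6.1, adjusted p = 0.471 from edgeR) and -0.66 (E6.2, adjusted p = 0.115), and the E7 clones gave -0.45 (E7.1, adjusted p = 0.174) and -0.21 (E7.2, adjusted p = 0.597). The average over the clones was -0.46 (standard error 0.14, adjusted p = 0.259), a ratio of 0.726. *Ebf1* was the only member of the 10 with all libraries of the clones under all those of the parental line, as were 0.885% of all genes tested. The comparisons of the clones with the parental line share the same parental libraries and are not independent of each other.

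Between the clones of the 2 exons more members were called, in a test that does not use the parental libraries as a reference. This test has more libraries on each side than those of single clones, so more calls need not mean larger differences. *Pou2f2, Spib* and *Tcf3* were higher and *Bach2* was lower in the E7 clones than in the E6 clones. These are 4 of the 10 members, where 12.1% of all genes tested were called, 6.21% as higher and 5.85% as lower. All E7 libraries were above all E6 libraries for 2 members, *Pou2f2* and *Tcf3*, and for 1.81% of all genes. The mean of E7.1 and E7.2 minus the mean of E6.1 and E6.2 was 1.35 on the log2 scale for *Pou2f2* (standard error 0.26, adjusted p = 0.00781, edgeR), a 2.55-fold higher level. *Spib* was 0.56 higher (standard error 0.14, adjusted p = 0.0216) and *Tcf3* 0.47 higher (standard error 0.14, adjusted p = 0.0440), 1.47-fold and 1.38-fold. *Bach2* differed by -1.26 (standard error 0.26, adjusted p = 0.0109), a ratio of 0.418. With only 2 clones for each exon, the targeted exon and the clone cannot be told apart.

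The other members were not called in this comparison. *Ikzf3* differed by 0.32 (standard error 0.10, adjusted p = 0.0541), *Pax5* by 0.56 (standard error 0.27, adjusted p = 0.185), *Ikzf1* by 0.27 (standard error 0.20, adjusted p = 0.375) and *Ebf1* by 0.26 (standard error 0.13, adjusted p = 0.172). The values of *Spi1* and *Pou2af1* were 0.00 (standard error 0.11) and 0.03 (standard error 0.14). The log2 difference was above 0 for 9 of the 10 members, with a median of 0.29, compared with a median of -0.03 over all genes tested. *Foxp1* RNA differed in the same comparison by -1.09 (adjusted p = 0.000609), and its part in these differences was not tested. Of the 5 plasma cell markers 4 were tested and 2 were called higher in the E7 clones (6.21% of all genes), with a summed level of 1009 to 2052 CPM in the E6 libraries and 1644 to 2289.8 CPM in the E7 libraries. The myeloid markers summed to 0.571 to 2.19 CPM and 1.73 to 5.18 CPM, with 0 called. The part of these cell type markers in the differences was not tested.

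The calls of *Pou2f2* and *Bach2* held in all 23 alternative fits. Their adjusted p reached at most 0.0304 and 0.0353. *Spib* was called in 19 of the 23 and *Tcf3* in 13, with adjusted p values of up to 0.0715 and 0.129. Without E6.1 replicate 1, for example, *Tcf3* differed by 0.42 (adjusted p = 0.129), and without E7.1 replicate 2 by 0.48 (adjusted p = 0.0763). When replicate 3 of both E6.2 and E7.2 was left out, the number of members called rose to 7. *Pax5* (0.56, adjusted p = 0.00968), *Ikzf1* (0.30, adjusted p = 0.0382) and *Ikzf3* (0.30, adjusted p = 0.0321) joined. The number of all genes called rose from 1677 to 4734. These libraries are those that deviated in *Pax5* and *Ikzf1*, so the calls of these genes without them are no independent support.

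**Figure D3:**
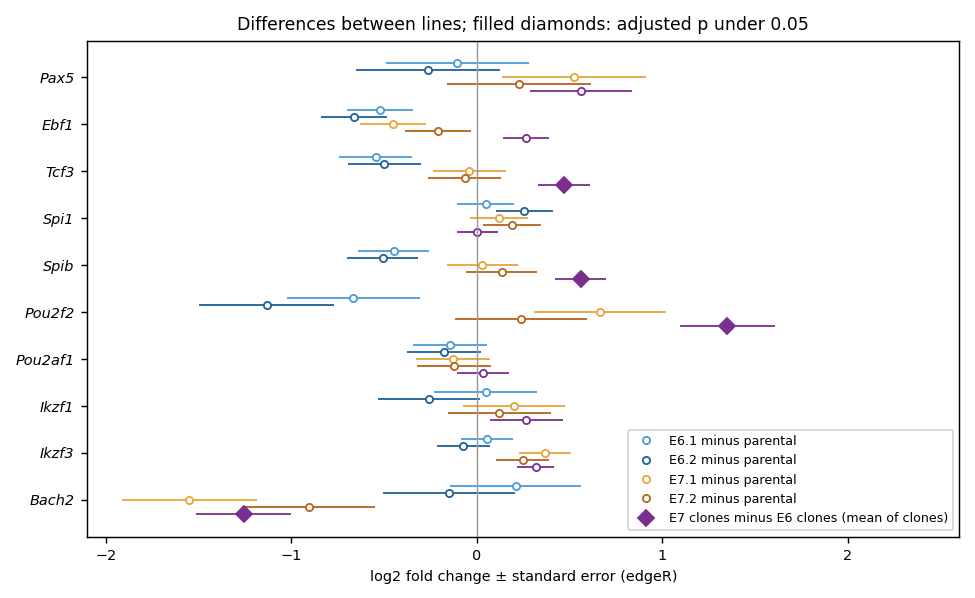
Log2 fold changes of the 10 factors with their standard errors, for each clone against the parental line and for the mean of the E7 clones against the mean of the E6 clones; filled diamonds have an adjusted p under 0.05. *Pou2f2, Spib* and *Tcf3* are filled to the right of 0 and *Bach2* to the left, at 1.35, 0.56, 0.47 and -1.26.

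Among the comparisons of single clones, with all libraries and the quasi-likelihood test, members were called only where E7.1 was set against an E6 clone. Against E6.2, E7.1 was higher in *Pou2f2* (1.80, standard error 0.37, adjusted p = 0.00887) and *Ikzf3* (0.44, standard error 0.14, adjusted p = 0.0484) and lower in *Bach2* (-1.40, standard error 0.36, adjusted p = 0.0226), which makes 3 of 10 members against 16.9% of all genes. In 23 alternative fits the call of *Pou2f2* held in 23, that of *Bach2* in 18 and that of *Ikzf3* in 8, where its adjusted p reached 0.163. Against E6.1, E7.1 was lower in *Bach2* (-1.76, standard error 0.37, adjusted p = 0.0237), 1 of 10 against 3.24% of all genes, and *Pou2f2* differed by 1.33 (adjusted p = 0.0592). E7.2 against E6.2 and E7.2 against E6.1 gave 0 of 10 members, with 2.24% and 0.352% of all genes called. Without E6.2 replicate 3, *Bach2, Pou2f2* and *Spib* were called in E7.2 against E6.2, 3 of 10 members against 15.7% of all genes. With all libraries the differences of *Pou2f2* were 1.37 (adjusted p = 0.0683) and 0.90 (adjusted p = 0.377), and those of *Bach2* -0.76 (adjusted p = 0.266) and -1.12 (adjusted p = 0.286). At an unadjusted p under 0.05 there were 5 and 4 members (19.1% and 11.6% of all genes), and DESeq2's Wald test called 2 in E7.2 against E6.2 (6.99% of all genes). The clones of the same exon also gave 0 of 10 members, in E6.2 against E6.1 (1.24% of all genes) and in E7.2 against E7.1 (0.59%), where 0 members had an unadjusted p under 0.05 (12.9% and 13.3% of all genes). For *Bach2* the difference of E7.2 from E7.1 was 0.64 (standard error 0.36, adjusted p = 0.441). A difference between E7.1 and E7.2 in their distance from the E6 clones was thus not shown for any member.

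Among the 15 libraries the levels of some members rose and fell together. The values that follow are Pearson correlations of log2 CPM across the 15 libraries, which fall into 5 lines of 3, and are given as a description. The highest was 0.92 between *Pax5* and *Ikzf1*, followed by 0.84 between *Tcf3* and *Spib* and 0.80 between *Spib* and *Pou2f2*. *Pou2f2* and *Bach2* had the most negative value, -0.78. Within the parental line and each E6 clone, the library with the most *Pou2f2* had the least *Bach2*. Within E7.1 and within E7.2 the order was the same for both genes. In E7.1 *Bach2* rose from 26.6 to 38.0 CPM and *Pou2f2* from 54.4 to 80.6 CPM. E6.2 replicate 3 departed from the pattern between lines, with 45.9 CPM of *Bach2* but only 23.0 CPM of *Pou2f2*, under all E7 libraries. *Pou2af1* had no value beyond 0.55 in either direction with another member, and *Spi1* none beyond 0.53.

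**Figure D4:**
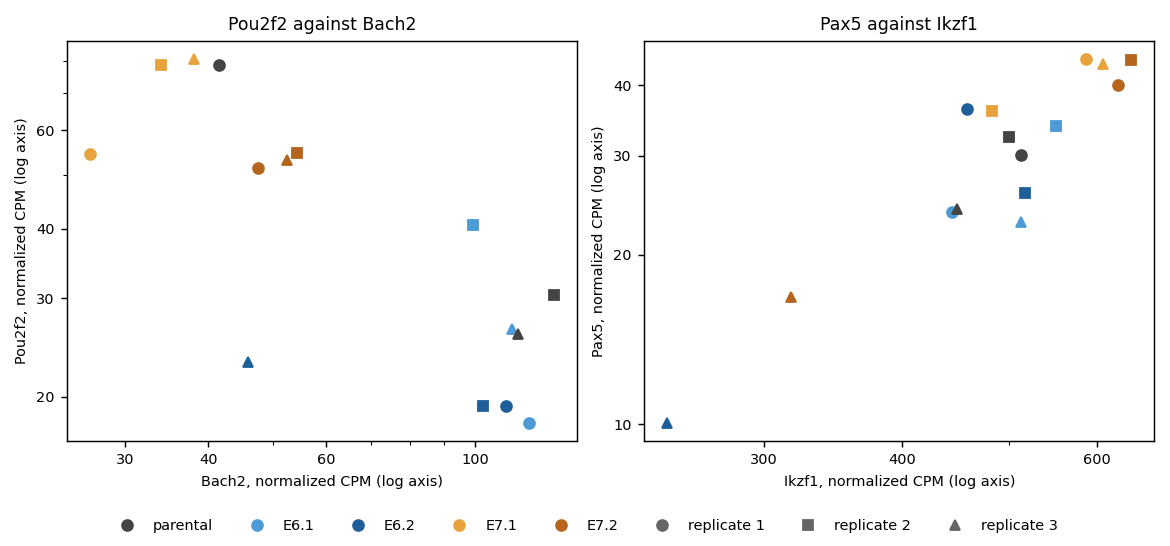
Normalized CPM of *Pou2f2* against *Bach2* (left) and of *Pax5* against *Ikzf1* (right) in the 15 libraries, both axes logarithmic; colours give the line and symbols the replicate. In the left panel the E7 libraries and parental replicate 1 lie at high *Pou2f2* and low *Bach2*, and in the right panel replicate 3 of both E6.2 and E7.2 lie at the lower left.

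Since no member was called against the parental line, the genes most like the 2 members with the widest range of line means were listed. Those most like *Pou2f2* over the 15 libraries included *Atp2a3*, a calcium pump of the endoplasmic reticulum (r = 0.96), and *Slc9a3r1* (r = 0.94). *Atp2a3* averaged 81.2 CPM in parental cells, 60.9 and 53.4 CPM in the E6 clones and 106 and 111 CPM in the E7 clones. The genes most like *Bach2* were *Atf6*, a sensor of the unfolded protein response, *Kidins220* and *Zc3hav1*, an antiviral zinc finger gene, with r of 0.97, 0.96 and 0.96. *Atf6* averaged 215 CPM in parental cells, 227 and 214 CPM in the E6 clones and 144 and 180.1 CPM in the E7 clones. These likenesses are a description of these libraries.

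Partners and relatives of the factors were taken as a list of 19 genes, of which 15 passed the filter. The 3 with the highest parental level per length were *Tcf4*, an E protein like E2A (33.1 RPKM), *Ets1* (25.2 RPKM) and *Irf8* (19.2 RPKM), and none of these was called in the E7 clones against the E6 clones (log2 differences of -0.34, -0.08 and -0.12, adjusted p = 0.216, 0.741 and 0.595). *Irf4*, which acts with PU.1 and SPIB on composite sites and drives plasma cell fate at high levels, was lower in E6.2 than in parental cells (14.2 ± 3.73 against 44.2 ± 5.98 CPM, SD, n = 3; log2 fold change -1.64, adjusted p = 0.00333, edgeR), and was the only gene of the list called in a clone against the parental line. In the E7 clones against the E6 clones, 3 of the 15 were called higher and 3 lower, beside 6.21% and 5.85% of all genes tested. The higher genes were *Irf4* (1.02, adjusted p = 0.00472), *Id2* (1.52, adjusted p = 0.00821) and *Id3* (1.89, adjusted p = 0.0152). *Irf4* also differed between clones of the same exon. It was called lower in E6.2 than in E6.1 (adjusted p = 0.0179, edgeR), 1 of the 15 beside 1.24% of all genes. Each E7 clone was called higher in *Irf4* against E6.2, and neither was called against E6.1. Id proteins bind E proteins such as E2A and keep them from DNA. *Id2* was at 3.22 and 2.39 CPM in the E6 clones and at 11.6 and 5.46 CPM in the E7 clones, and *Id3* stayed at or under 1.12 CPM in the mean of any line. The lower genes were *Tcf12* (-0.34, adjusted p = 0.0479), another E protein gene, *Mafg* (-0.41, adjusted p = 0.0290), which encodes a small Maf protein of the kind that pairs with BACH2, and *Runx1* (-0.55, adjusted p = 0.0261). *Id2, Id3, Tcf12, Mafg* and *Runx1* are named after their values were seen.

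Of 13 genes that these factors are known to activate in B cells, 11 were tested. In the E7 clones against the E6 clones 6 were called higher and 1 lower, beside the same 6.21% and 5.85% of all genes. *Cd79a*, the signalling chain of the B-cell receptor and a target of PAX5 and EBF1, averaged 86.1 CPM in parental cells, 77.2 and 63.8 CPM in E6.1 and E6.2, and 135 and 162 CPM in E7.1 and E7.2 (E7 against E6 1.08, standard error 0.17, adjusted p = 0.00370). *Cd36*, a scavenger receptor gene that depends on Oct2 in B cells, averaged 36.6 CPM in parental cells, 13.7 and 7.24 CPM in the E6 clones and 39.5 and 60.4 CPM in the E7 clones (2.29, standard error 0.24, adjusted p = 0.000116). *Ms4a1*, which encodes CD20, averaged 658 CPM in parental cells, 459.8 and 350.2 CPM in the E6 clones and 598 and 494 CPM in the E7 clones (0.44, standard error 0.13, adjusted p = 0.0407). Among single clones, each E7 clone was called higher in *Cd36* against both E6 clones. In *Cd79a* each was called higher against E6.2 and neither against E6.1, and in *Ms4a1* only E7.1 was called, against E6.2. Against the parental line *Cd36* (-2.34, adjusted p = 0.00199) and *Ms4a1* (-0.91, adjusted p = 0.0227) were lower in E6.2, and 0 of the 11 were called in the other clones. *Cd79b*, the highest of the list per length at 174 RPKM in parental cells, was not called (E7 against E6 0.21, adjusted p = 0.187). The further calls between the exons included, named after their values were seen, *Cd72* and *Btk*, which were higher by 0.86 and 0.41, and *Blnk*, lower with a difference of -0.50. *Cr2*, the complement receptor CD21, also named after its values were seen, was called lower in the average of the clones against the parental line (-0.53, adjusted p = 0.0429).

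Of 9 genes that the factors are known to repress, 7 were tested. *Prdm1*, the main target of *Bach2*, was at 11.3 ± 1.78 CPM in parental cells, 6.14 ± 1.70 CPM in E6.1, 1.89 ± 0.317 CPM in E6.2, and at 6.56 ± 2.90 CPM in E7.1 and 11.2 ± 8.51 CPM in E7.2 (SD, n = 3). It was called lower in E6.2 against the parental line (log2 fold change -2.58, adjusted p = 0.0108, edgeR) and higher in the E7 clones against the E6 clones (1.33, standard error 0.31, adjusted p = 0.0190). Among single clones, each E7 clone was called higher in *Prdm1* against E6.2, and neither was called against E6.1. *Hmox1*, the heme oxygenase gene repressed by BACH proteins, was at 324 ± 169 CPM in E7.1 and at 118 to 165 CPM in the means of the other lines. It was called higher in E7.1 against the parental line (1.19, adjusted p = 0.0400) and in the E7 clones against the E6 clones (0.62, adjusted p = 0.0406). Among single clones, E7.1 was called higher in *Hmox1* against each E6 clone, and E7.2 was called against no other line. The part of *Bach2* in this was not tested. *Jchain* and *Xbp1*, genes of secreting cells, were not called in the E7 clones against the E6 clones (0.33, adjusted p = 0.115, and 0.41, adjusted p = 0.332). All 7 genes had a log2 difference above 0 there, with a median of 0.41 (-0.03 over all genes tested), and 2 were called, beside 12.1% of all genes. Of the plasma cell markers, *Sdc1*, named after its values were seen, was also higher (1.46, adjusted p = 0.0246), at 3.72 CPM against 1.36 CPM.

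**Figure D5:**
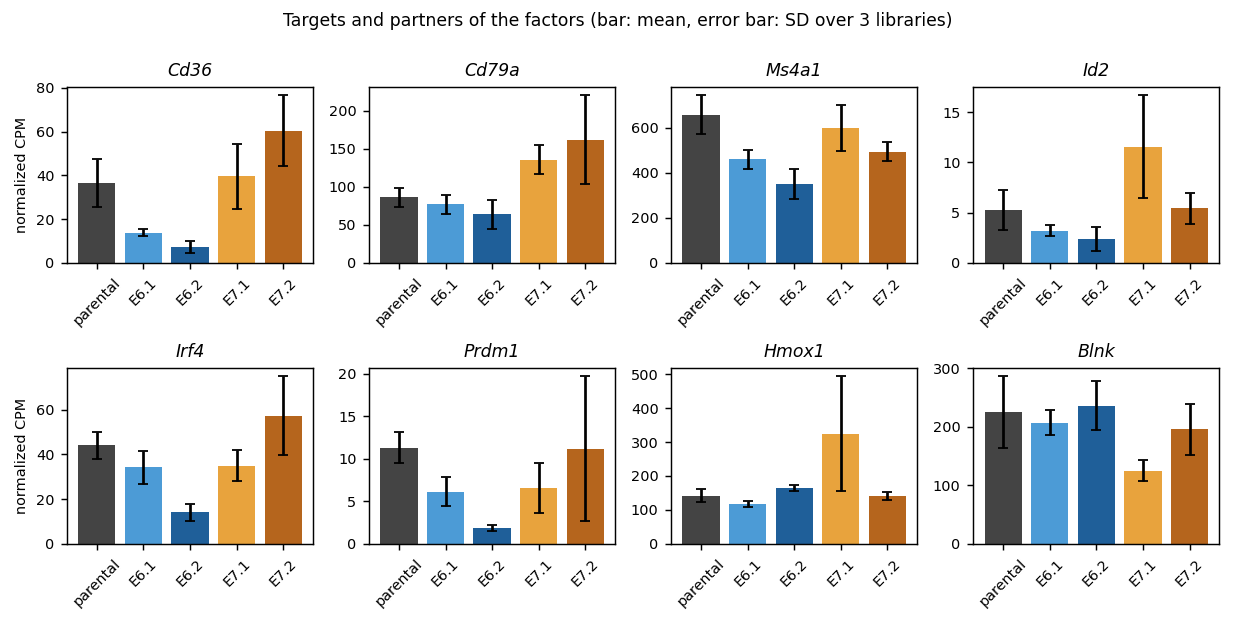
Mean normalized CPM of 8 targets and partners of the factors in the 5 lines, with the SD over 3 libraries as error bars; each panel has its own vertical axis from 0. *Cd36, Cd79a, Id2* and *Irf4* have higher means in the E7 clones than in the E6 clones, *Prdm1* is lowest in E6.2 and *Hmox1* is highest in E7.1.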

How the data were processed

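The labels give 5 lines with 3 libraries each, collected from separate passages. The authors deposited raw counts of read pairs per gene for each library, made per the file headers with featureCounts 1.5.0 on HISAT alignments and a GRCm38 annotation with spike-ins, unstranded and without pairs that overlapped several genes. The build is mm10 per the labels. The aligner's version is not given in the sources used here. Of 41480 features, 92 were spike-ins with a total count of 0, and 40254 of the 41388 genes were matched to a symbol.

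Counts were filtered with filterByExpr, normalized by TMM and tested with edgeR 4.0.16 in R 4.3.3 (quasi-likelihood, 1 fit of 15 libraries, line as factor), with Benjamini-Hochberg adjustment over 13904 genes in each of 12 comparisons. Calls were made at an adjusted p under 0.05 whatever the fold change. A standard error is the log2 fold change divided by the square root of F. The method was tested on simulated data. A floor of 3 counts corresponds to 0.0751 to 0.118 CPM and covers counting error only.

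The members, the lists of related genes and the comparisons were chosen with earlier results of these data known. Named genes are the members, *Foxp1*, listed genes called in a clone against the parental line, the 3 of each list highest per length in parental cells, and the 3 genes most correlated with each of the 2 members of widest range. Alternatives were DESeq2 size factors, no filter, DESeq2 1.42.0's Wald test, edgeR's likelihood ratio and newer quasi-likelihood tests, 6 libraries only, a replicate block, and the removal of libraries. Correlations used log2 CPM with a prior count of 2. Some results are not reported here.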

Additional observations from a re-analysis of the deposited data

Results flagged for a closer look

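The differences between clones that were past the threshold are listed again here because they are differences between edited lines under the same contrast. In the mean of the E7 clones minus the mean of the E6 clones, the log2 difference was 1.35 for *Pou2f2*, 0.56 for *Spib*, 0.47 for *Tcf3* and -1.26 for *Bach2*. In E7.1 minus E6.2 it was 1.80 for *Pou2f2*, 0.44 for *Ikzf3* and -1.40 for *Bach2*, and in E7.1 minus E6.1 it was -1.76 for *Bach2*. Each is the test of the difference itself (edgeR, adjusted p under 0.05). The call of *Ikzf3* in E7.1 minus E6.2 held in 8 of 23 alternative fits, with an adjusted p of up to 0.163, and was lost with DESeq2's size factors. The call of *Bach2* held in 18 of 23 in each comparison of E7.1 with an E6 clone. No line has more than 3 libraries, so single libraries were not tested for outlying values.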

How the results depend on the processing

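Of 2800 member values under alternatives, 0 reversed a call, and 109 had another sign without being called in either fit. The number of members called depended on the setting as follows. With DESeq2's size factors it was 2 in E7.1 against E6.2 (16.9% of all genes). Without the filter it was 1 in E7.1 against parental (1.38% of all genes) and 2 in E7.1 against E6.1 (2.41%). It was 2 in E7.1 against E6.2 (8.77%) and 1 in E7.2 against E6.2 (2.06%). With DESeq2's Wald test it was 1 in E6.2 (2.87% of all genes) and 1 in E7.1 (8.71%) against parental. It was 2 in E7.1 against E6.1 (11.8%) and 4 in E7.1 against E6.2 (24.2%). For E7.2 against E6.2 it was 2 (6.99%), and for the E7 against the E6 clones 5 (19.4%). With edgeR's likelihood ratio test it was 1 in E7.1 against parental (5.38% of all genes) and 2 in E7.1 against E6.1 (7.65%). It was 2 in E7.2 against E6.2 (5.49%) and 5 in the E7 against the E6 clones (16.2%). With edgeR's newer quasi-likelihood test it was 1 in E7.1 against parental (1.73%). Leaving out replicate 3 of both E6.2 and E7.2, it was 1 in E6.1 (*Ebf1*) and 2 in E7.1 against parental (*Bach2* and *Ebf1*), 7 in the E7 against the E6 clones (33.1% of all genes), 3 in E7.1 against E6.1 (17.8%), 4 in E7.1 against E6.2 (34.9%) and 1 in E7.2 against E6.2 (17.05%). Leaving out parental replicate 1 as well, added after the data had been seen, gave 3, 1 and 2 against parental for E7.1 (26.3% of all genes), E7.2 (9.39%) and the average of the clones (3.27%), 7 for the E7 against the E6 clones (38.4%), 4 for E7.1 against E6.1 (24.5%), 4 for E7.1 against E6.2 (38.6%), 1 for E7.2 against E6.1 (2.92%) and 3 for E7.2 against E6.2 (23.6%). The cause was not tested.

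Leaving out each library in turn gave 0 to 1 members in E6.2 and 0 to 2 in E7.1 against parental, 2 to 6 in the E7 against the E6 clones, 0 to 2 in E7.1 against E6.1, 1 to 4 in E7.1 against E6.2 and 0 to 3 in E7.2 against E6.2. The lowest number in the E7 against the E6 clones, 2, was reached without E6.1 replicate 1 or 3 or E7.1 replicate 2 or 3, and the highest, 6, without E7.2 replicate 3. In E7.1 against parental, 2 were called without parental replicate 1 or E6.2 replicate 3. In E6.2 against parental, *Ebf1* was called without E6.2 replicate 1. In E7.1 against E6.1, 0 were called without E6.1 replicate 1 or 3 or any E7.1 library, and 2 without parental replicate 1, E6.1 replicate 2 or E6.2 replicate 3. In E7.1 against E6.2, 1 was called without E6.2 replicate 2 or any E7.1 library. In E7.2 against E6.2, 1 was called without parental replicate 1 and 3 without E6.2 replicate 3. The share of all genes called moved between these fits as well. For the E7 against the E6 clones it was 2.77% without E6.1 replicate 1 and 13.7% without parental replicate 1. In E7.1 against E6.1 the shares in the same fits were 0.472% and 6.74%. In E7.1 against parental the share was 0.209% without parental replicate 2 and 6.81% without parental replicate 1.

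With the replicate number as a block, 4 members were called in the E7 against the E6 clones (10.1% of all genes). There were 1 in E7.1 against E6.1 (2.99%), 2 in E7.1 against E6.2 (15.1%) and 0 against parental (0.28% to 1.17%). Deviations from the line means correlated with a mean r of 0.0531 for equal numbers and -0.0249 for different ones, so a pairing over all lines was not shown. The equal-number pairs of E6.2 with E7.2 correlated at 0.174, 0.276 and 0.426, and E7.2 against E6.2 gave 0 members with and without the block, with 273 and 312 genes called. DESeq2's size factors changed the rank per length of 0 of 50 member levels. Each member had at least 335 pairs in every library, far above the floor of 3 counts.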
